A study of Homo sapiens with 12 samples.

Results

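PRI-724 is a small molecule that blocks the binding of the transcriptional coactivator CBP (gene CREBBP) to β-catenin, and its effect on the messenger RNA of NCI-H295R cells was read here against the vehicle DMSO. NCI-H295R, a long-used cell line from a human tumour of the adrenal cortex, makes steroid hormones, and its driver lesions include an activating change in β-catenin. The comparison used 6 of the 12 libraries of the series, chosen by their labelled treatment: 3 biological replicates with 26 µM PRI-724 for 96 h, and 3 with DMSO for 96 h. The labels give this dose as the IC50. The other 6 libraries were used only to ask whether a named gene differed from another treatment: 3 with 62 µM EPZ-6438, an inhibitor of the histone methyltransferase EZH2, for 96 h, and 3 with vehicle for 48 h followed by 10 µM forskolin, which raises cAMP, for 48 h. All libraries came from 1 cell line, with each agent at 1 dose and 1 time and with poly(A)-selected RNA. Of 60617 genes in the table, 20360 had enough counts to be tested, and they are the features described below.

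As background, β-catenin enters the nucleus when Wnt signalling stops its destruction, joins TCF and LEF factors on DNA and recruits CBP or its relative p300. In the adrenal cortex Wnt activity is strongest in the outer layer, while cAMP and the nuclear receptor SF-1 (gene NR5A1) drive the steroid-making layers. A second pathway matters for what follows: the integrated stress response, in which kinases that sense misfolded protein, missing amino acids or failing mitochondria phosphorylate eIF2, slow translation in general and let the factor ATF4 be made, which with C/EBP partners switches on genes for amino acid supply. Cells in the cortex also need cholesterol, which they make, import, store and export, as the substrate of every steroid.

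Total counts per library were 20552700 to 28780890 with PRI-724 and 21047022 to 27019082 with DMSO. PRI-724 replicate 2 stood apart from the others of its group: the chi-square per degree of freedom against replicates 1 and 3 was 14.5 and 13.3, against 2.71 to 7.34 for the other 10 replicate pairs of the series. In 5 groups of genes of equal size by GC content, the most GC-rich group in that library had a median of -0.16 on the log2 scale relative to the DMSO mean, against 0.00 and 0.02 in replicates 1 and 3. Results that rest on it are given with and without it. Mitochondrially encoded genes took 3.58% to 4.81% of counts with PRI-724 and 2.37% to 3.22% with DMSO. Adrenocortical markers were detected in both groups, and 15 of 15 were tested. Their summed level was 9166 to 9545 CPM with DMSO and 4708 to 5478 CPM with PRI-724. CPM are counts per 1000000 counts of a library, scaled between libraries except in the marker sums of this paragraph. Much of the cortex sum came from DLK1 and SCARB1, with 66700 to 96940 and 22736 to 29747 raw counts with PRI-724. By the test described below 14 of the 15 markers were lower with PRI-724. Log2 fold changes reached -4.46 in HSD3B2 and -4.28 in MC2R. Leukocyte markers summed to 1.53 to 2.78 CPM, with 5 of 10 at 0 in all 6 libraries, and endothelial markers to 0.81 to 1.45 CPM. The fibroblast sum was 73.8 to 77.7 CPM with DMSO and 54.4 to 57.7 CPM with PRI-724. The 8 chromaffin markers summed to 50.9 to 53.7 CPM with DMSO and 98.7 to 101.5 CPM with PRI-724, almost all of it from the granins CHGA and CHGB, while the catecholamine enzymes TH, DBH and PNMT had at most 2 counts in any of the 6 libraries. The part of these marker and mitochondrial shares in the results was not tested.

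With PRI-724, 6070 genes were higher (29.8% of those tested) and 5913 were lower (29.0%), at an adjusted p under 0.05 (quasi-likelihood test of edgeR, p-values adjusted by Benjamini-Hochberg over all genes tested). "Rose" and "fell" below mean that this test was passed. A stricter test, for a change of more than 1.5-fold, called 1240 genes higher (6.09%) and 1251 lower (6.14%). In 62.1% of genes the 3 libraries of one group all lay above the 3 of the other. The largest rises and falls named below were picked among genes with a symbol that passed the test without such overlap. A mean of at least 1 on the log2 CPM scale over all 12 libraries was also required. Lack of overlap in those genes was thus a condition of the choice. Without these filters, log2 fold changes over all genes tested ran from -5.747 to 7.442. The median log2 fold change over all genes was 0.01. In RNA from whole cultures, fewer cells of a kind and less RNA per cell cannot be told apart. With so many genes past the test, a list of genes is read below against these shares, and no list was tested as a list. Fold changes are log2, PRI-724 minus DMSO, with the standard error (SE) of the fit. Gene positions are those of the GENCODE 29 annotation on the build GRCh38, which is hg38.

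**Figure D1:**
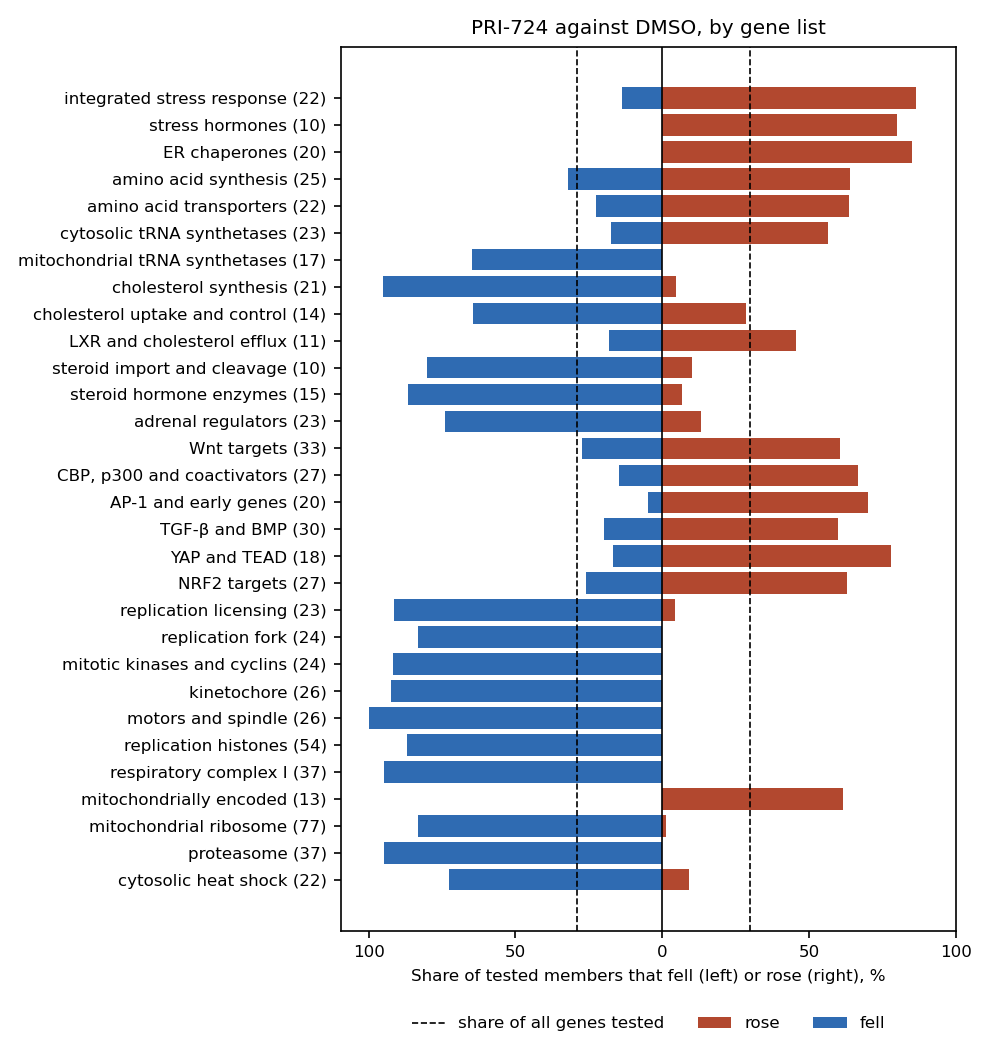
Share of the tested members that rose (bars to the right) or fell (bars to the left) with PRI-724, for a chosen part of the gene lists. Shares are in percent, at an adjusted p under 0.05, with the number of members tested in brackets. Lists not drawn include some near the shares over all genes, such as potassium channels, where 20 of 61 rose and 18 fell. Dashed lines mark the share over all 20360 genes, 29.8% higher and 29.0% lower. The integrated stress response, stress hormones and ER chaperones lie far to the right, and cholesterol synthesis, mitosis, respiratory complex I and the proteasome far to the left.

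Most genes of the integrated stress response rose. Of 22 tested transcription factors, feedback genes and effectors of the response, 19 rose and 3 fell, with a median log2 fold change of 1.82. CHAC1 (chromosome 15, 40952962 to 40956519), an enzyme that degrades glutathione and a sensitive ATF4 target, was at 7.52, 8.35 and 7.57 CPM in the 3 DMSO libraries and 72.8, 55.3 and 69.4 CPM in the 3 PRI-724 libraries. The groups were far apart, and CHAC1 was 8.38-fold higher (log2 fold change 3.07 ± 0.10, adjusted p = 4.83e-15). DDIT3, which encodes the pro-death factor CHOP, was at 16.6, 15.8 and 15.7 CPM with DMSO and 91.6, 104 and 88.4 CPM with PRI-724. TRIB3, a pseudokinase that restrains ATF4, went from 69.6, 71.1 and 72.7 CPM to 445, 377 and 443 CPM. Neither gene's groups overlapped, and the rises were 2.56 ± 0.072 and 2.57 ± 0.055 on the log2 scale. PPP1R15A, the phosphatase subunit that reverses eIF2 phosphorylation, rose by 2.21, SESN2, which reports low leucine to mTORC1, by 2.19, NUPR1 by 3.37, and NIBAN1 by 3.72. The messenger of ATF4 itself, which is mainly controlled by translation, was at 190.1, 197 and 201 CPM with DMSO and 260.2, 263 and 257 CPM with PRI-724, a modest rise of 0.41 ± 0.040. Its partner CEBPG rose by 1.59. The 3 members that fell were VLDLR (-0.63), CEBPD (-0.39) and ATF5 (-0.13). Without PRI-724 replicate 2 only 1 of them still passed, VLDLR.

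CEBPB, counted among the risers, was a borderline call. It was at 139, 134 and 138 CPM with DMSO and 217, 131 and 225 CPM with PRI-724, so replicate 2 lay just below the DMSO values and the other 2 above them. The change of 0.47 ± 0.18 had an adjusted p of 0.0473, and without PRI-724 replicate 2 it was 0.68 with an adjusted p of 9.15e-10. It did not pass when any one of the other 5 libraries was left out, with adjusted p of 0.149 and 0.161 without PRI-724 replicate 1 or 3 and of 0.0941, 0.11 and 0.0984 without DMSO replicate 1, 2 or 3. Upstream, the eIF2 kinases changed less: EIF2AK3 (PERK, the kinase of the endoplasmic reticulum) rose by 0.74 and EIF2AK1 (HRI) by 0.27, and EIF2AK4 (GCN2) was at 127 ± 7.54 CPM and 131 ± 6.24 CPM (SD, n = 3) and did not pass. DELE1, which carries mitochondrial stress to HRI, fell by 0.39. In this list of kinases and eIF2 factors 4 of 14 rose and 3 fell (5 without PRI-724 replicate 2), near the shares over all genes.

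**Figure D2:**
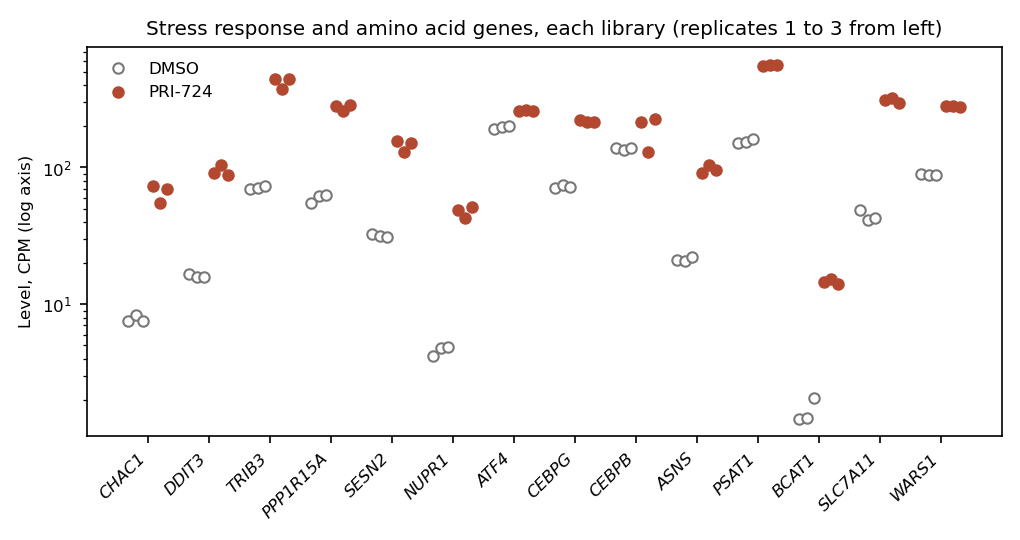
Level of 14 genes of the integrated stress response and amino acid supply in each library, in CPM on a logarithmic axis, with DMSO libraries as open circles and PRI-724 libraries as filled circles. For 13 of the 14 genes the 3 PRI-724 libraries lie above the 3 DMSO libraries without overlap, and for CEBPB PRI-724 replicate 2 lies just below the DMSO libraries.

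Genes of amino acid supply mostly rose, and mitochondrial aminotransferases went the other way. Of 25 tested genes of amino acid synthesis and one-carbon metabolism 16 rose and 8 fell (median 0.69). ASNS, asparagine synthetase, was at 21.0, 20.9 and 22.3 CPM with DMSO and 91.8, 105 and 96.5 CPM with PRI-724. The 3 treated libraries lay close together and well above the others (2.20 ± 0.058, 4.58-fold). PSAT1 of serine synthesis rose by 1.85 and PHGDH, which starts that pathway, by 0.69, while PSPH, which ends it, fell by 0.48. The mitochondrial one-carbon enzymes SHMT2, MTHFD2 and ALDH1L2 rose by 1.29, 1.52 and 3.35, and the cytosolic SHMT1 fell by 0.37. BCAT1, the cytosolic aminotransferase of branched-chain amino acids, was at 1.46, 1.47 and 2.07 CPM with DMSO and 14.6, 15.4 and 14.2 CPM with PRI-724 (3.15 ± 0.12), a separation with no overlap. Its mitochondrial counterpart BCAT2 fell by 0.31, as did the mitochondrial aminotransferase GOT2 (-0.61) and glutamate dehydrogenase GLUD1 (-0.22). DMGDH, a mitochondrial dehydrogenase that hands methyl groups of dimethylglycine to folate, had one of the 15 largest rises among genes that met the filters given earlier. It went from 0.502, 0.662 and 0.376 CPM to 11.1, 11.6 and 10.4 CPM (4.38 ± 0.16).

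Of 22 amino acid transporters tested 14 rose and 5 fell (3 without DMSO replicate 1 or 2). SLC7A11, the cystine importer that feeds glutathione, was at 49.1, 41.5 and 42.5 CPM with DMSO and 314, 322 and 294 CPM with PRI-724, with no overlap (2.81 ± 0.072). Its partner chain SLC3A2 rose by 1.73, the leucine carriers SLC7A5 and SLC43A1 by 1.62 and 2.69, and the glutamine carrier SLC1A5 by 1.80. The glutamate carrier SLC1A3 fell by 1.18. SLC7A7, which exports arginine, changed by -2.03, from low levels of 1.28, 1.18 and 1.08 CPM to 0.242, 0.207 and 0.383 CPM.

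The aminoacyl-tRNA synthetases, which load amino acids onto tRNA, split by compartment. Of 23 cytosolic genes, scaffold proteins of the synthetase complex included, 13 rose and 4 fell (2 without PRI-724 replicate 3 or DMSO replicate 2), and of 17 mitochondrial ones 0 rose and 11 fell. WARS1, for tryptophan, was at 89.9, 87.6 and 88.1 CPM with DMSO and 280.1, 281 and 277 CPM with PRI-724, and rose by 1.66 ± 0.040. GARS1, which serves both compartments, rose by 1.33, CARS1 by 1.28 and IARS1 by 1.19. EPRS1, for glutamate and proline, went the other way, from 1376, 1454 and 1465 CPM to 729, 787 and 756 CPM, a fall of 0.92 with no overlap, and RARS1, for arginine, fell by 0.30. The mitochondrial IARS2 (-0.57) and LARS2 (-0.52) fell.

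The promoters of these genes were read for the element that ATF4 and C/EBP factors bind together, searched as TGATGNAA on both strands in RefSeq windows (build GRCh38.p14) that run from 250 bases before to 50 after the annotated start. Windows were matched by symbol for 12660 of the 20360 genes tested, and 2.8% of these held a match. Among cytosolic synthetases with a window 7 of 19 held one, and those 7 all rose (median 1.06), while of the 12 without a match 3 rose and 4 fell (median -0.02). Of 16 windows of amino acid synthesis genes 4 held a match, and all 4 rose, as did 7 of the 12 without one. Of 20 windows of transporters 6 held a match, of which 5 rose and SLC1A3 fell, and 8 of the 14 without one rose. The response's own factors showed little difference: the 4 with a match among 19 rose (median 1.93), and so did 13 of the 15 without (median 1.77). A match is a run of letters, not a measured binding site. The 7 synthetase windows are shown because they carry this split, as 40 bases in the direction of the gene with the match in capitals. In AARS1, CARS1, GARS1, IARS1, MARS1 and TARS1 the match is on the opposite strand and therefore reads as its reverse complement.
AARS1: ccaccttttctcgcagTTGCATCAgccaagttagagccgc
CARS1: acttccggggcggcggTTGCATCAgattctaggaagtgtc
GARS1: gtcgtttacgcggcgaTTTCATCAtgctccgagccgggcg
IARS1: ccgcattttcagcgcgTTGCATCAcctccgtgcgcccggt
MARS1: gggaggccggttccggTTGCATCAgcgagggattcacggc
NARS1: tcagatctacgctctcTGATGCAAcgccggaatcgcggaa
TARS1: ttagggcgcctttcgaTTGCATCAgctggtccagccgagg
These stretches lie at chr16:70289670-70289709 (minus strand), chr11:3057402-3057441 (minus strand), chr7:30594829-30594868 (plus strand), chr9:92293687-92293726 (minus strand), chr12:57488048-57488087 (plus strand), chr18:57621799-57621838 (minus strand) and chr5:33440951-33440990 (plus strand). The match begins 187 bases before the annotated start in AARS1 and between 33 bases before and 14 bases after it in the other 6. The matches of CEBPG, CHAC1 and ASNS are shown beside them, because these genes rose by 1.59, 3.07 and 2.20, and in CHAC1 the match is again on the opposite strand.
CEBPG: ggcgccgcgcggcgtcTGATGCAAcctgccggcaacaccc
CHAC1: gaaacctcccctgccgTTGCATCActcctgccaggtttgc
ASNS: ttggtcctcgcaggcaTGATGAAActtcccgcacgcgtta
They lie at chr19:33374055-33374094 (plus strand), chr15:40953246-40953285 (plus strand) and chr7:97872453-97872492 (minus strand). The whole window of BCAT1, on the minus strand at chr12:24949052-24949351, is printed because BCAT1 had the largest change among the members of these 4 lists with a match, which begins 48 bases before the start.
BCAT1: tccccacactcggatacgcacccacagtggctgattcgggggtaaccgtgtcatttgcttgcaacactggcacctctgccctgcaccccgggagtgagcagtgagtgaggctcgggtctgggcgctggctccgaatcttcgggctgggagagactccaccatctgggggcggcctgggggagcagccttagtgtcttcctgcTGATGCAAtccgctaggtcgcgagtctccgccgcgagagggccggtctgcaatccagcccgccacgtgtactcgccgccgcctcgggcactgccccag

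**Figure D3:**
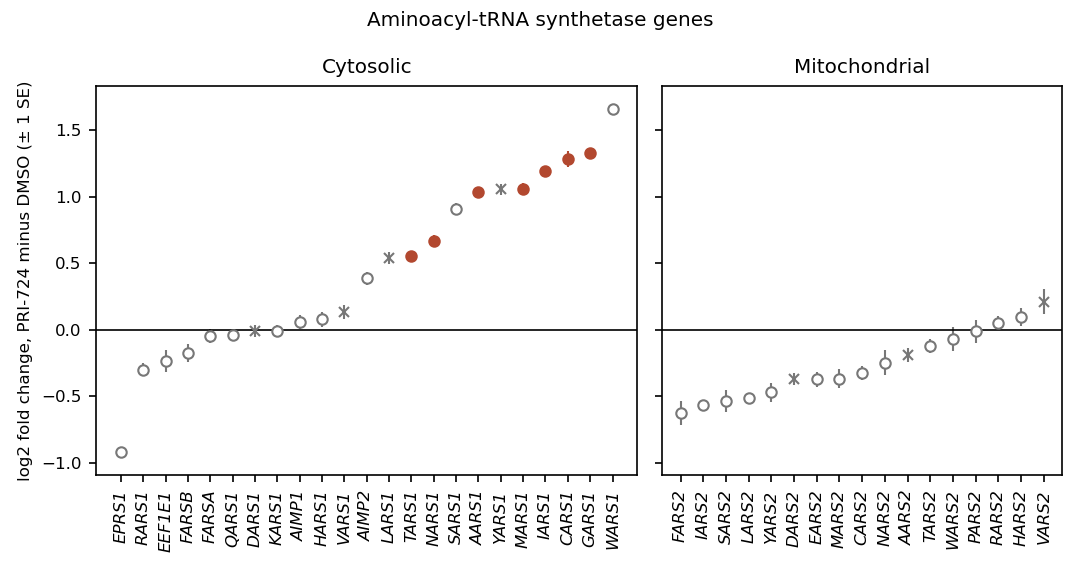
Log2 fold change with PRI-724 of each cytosolic (left) and mitochondrial (right) aminoacyl-tRNA synthetase gene, with bars of 1 SE. Filled points mark genes whose promoter window holds the letters TGATGNAA on either strand, open points genes without a match, and crosses genes with no window. The 7 filled points on the left all lie above 0, and no mitochondrial gene passed the test above 0.

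Chaperone genes also split by compartment. In the endoplasmic reticulum 17 of 20 chaperones and folding enzymes rose and 0 fell. HSPA5, the chaperone BiP that holds the stress sensors of this compartment silent, was at 839.8, 854 and 886 CPM with DMSO and 1938, 1808 and 1859.6 CPM with PRI-724, without overlap (1.12 ± 0.038). HYOU1 rose by 1.20, DNAJB9 by 1.05, and XBP1, the transcription factor of the unfolded protein response, by 1.60. Of 16 genes that remove misfolded proteins from this compartment 10 rose, led by EDEM1 (1.33) and SEL1L (1.20), and UFD1 and NPLOC4, which hand the proteins to the proteasome, fell by 0.66 and 0.36. In mitochondria 14 of 22 import, folding and protease genes fell and 3 rose (5 without PRI-724 replicate 3). HSPD1 and HSPE1 encode the partner chains of the mitochondrial chaperonin from one shared promoter region. HSPE1 was at 159, 178 and 177 CPM with DMSO and 48.5, 55.5 and 52.2 CPM with PRI-724, and HSPD1 at 1143, 1167 and 1169 CPM and 445, 489 and 450.5 CPM. Both fell without overlap (-1.72 ± 0.066 and -1.33 ± 0.042). The chaperone HSPA9 and the protease LONP1 rose against this, by 0.49 and 0.54. Of 22 cytosolic heat shock genes 16 fell and 2 rose, the factor HSF1 (0.34) and SERPINH1 (0.44), which folds collagen in the endoplasmic reticulum. The cytosolic chaperonin and prefoldin gave 11 falls and 0 rises among 14 genes, and the proteasome 35 falls and 0 rises among 37 (median -0.49). PSMB1 of its core went from 223, 240.2 and 257 CPM to 116, 127 and 126 CPM, again without overlap (-0.96 ± 0.056).

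Secreted stress hormones were among the largest rises. Of 10 tested 8 rose and 0 fell. GDF15, which curbs appetite through the brainstem, was at 2.74, 2.17 and 2.49 CPM with DMSO and 41.5, 29.9 and 41.2 CPM with PRI-724 (3.94 ± 0.13, 15.3-fold). ADM2, a vasodilator peptide, went from 0.821, 1.40 and 0.894 CPM to 23.7, 18.9 and 22.4 CPM (4.34 ± 0.15). INHBE, the activin βE chain, went from 1.05, 1.62 and 2.07 CPM to 22.4, 19.98 and 22.0 CPM (3.76 ± 0.13). For all 3 genes every PRI-724 library lay above every DMSO library. STC2 rose by 3.36 and VEGFA, the main angiogenic factor, by 1.04. FGF21 also rose, from raw counts of 2, 1 and 5 with DMSO to 32, 26 and 44 with PRI-724. ADM, the relative of ADM2, was at 0.537 ± 0.154 CPM and 0.490 ± 0.138 CPM (SD, n = 3) and did not pass. INHBA, the activin βA chain, rose by 3.27, from 3.74, 3.61 and 4.99 CPM to 40.8, 39.5 and 38.1 CPM, while INHA, the inhibin α chain typical of the adrenal cortex, fell from 9.21, 9.42 and 9.79 CPM to 1.60, 0.912 and 0.905 CPM (-3.09 ± 0.17).

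Enzymes that make cholesterol fell, as did the lipoprotein receptor SCARB1, and the export pumps ABCA1 and ABCG1 rose. Of 21 enzymes from acetyl-CoA to cholesterol 20 fell (median -0.71) and 1 rose, TM7SF2 (0.58), a sterol reductase. Squalene synthase FDFT1 was at 136, 141 and 146 CPM with DMSO and 60.7, 55.7 and 59.2 CPM with PRI-724 (-1.27 ± 0.047). For each of the 21 genes the groups did not overlap. IDI1 (-1.39), MVK (-1.38) and MSMO1 (-1.14) fell. SCARB1 (chromosome 12, 124776856 to 124882668), which takes cholesteryl ester from high-density lipoprotein, was at 1804, 1932 and 1782 CPM with DMSO and 1102, 986 and 1035 CPM with PRI-724, 1.77-fold lower (-0.82 ± 0.042). SOAT1, which esterifies cholesterol for storage, fell by 0.96, and LIPE, which frees it, by 1.07. SREBF2, the factor that drives these genes when sterol is short, fell by 0.71, its escort SCAP by 0.48 and its retention partner INSIG1 by 0.94. Of 14 uptake, storage and control genes 9 fell and 4 rose, among them NPC1, which lets cholesterol out of lysosomes, by 0.71.

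On the export side, 5 of 11 LXR receptors and targets rose and 2 fell. ABCA1, which loads cholesterol onto lipid-poor apolipoprotein, was at 12.1, 11.6 and 9.31 CPM with DMSO and 45.9, 42.9 and 37.8 CPM with PRI-724. ABCG1, which loads it onto high-density lipoprotein, was at 5.88, 5.67 and 5.41 CPM and 22.3, 21.8 and 21.5 CPM. Both rose without overlap, by 1.93 ± 0.088 and 1.95 ± 0.10. MYLIP, a ubiquitin ligase and LXR target, rose by 0.98. ABCA3, a lipid pump of the same family, rose by 1.05. Among other LXR targets SREBF1 fell by 0.28, and APOE and LPCAT3 were at -0.03 and 0.05 and did not pass. The receptor NR1H3 (LXRα) fell by 0.95 and NR1H2 (LXRβ) rose by 0.30. Fatty acid synthesis was divided, with 8 rises and 7 falls among 20 genes. FASN, which builds the fatty acid chain, rose by 0.41, and the desaturases FADS2 and FADS1 fell by 1.58 and 0.94. CPT1A, the gate of fatty acid entry into mitochondria, rose by 0.65, while 11 of 19 oxidation genes fell, HADH by 1.01.

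The sterol response element was searched as TCACNCCAC on both strands. It was in 1.45% of windows of genes tested, in 0 of 16 of synthesis genes, in 1 of 11 of uptake and control genes and in 1 of 19 of fatty acid synthesis genes. The single match in uptake and control genes is in SREBF2, on the plus strand at chr22:41832855-41833154, beginning 133 bases before the start. Its window is printed because SREBF2 drives the synthesis genes described above.
SREBF2: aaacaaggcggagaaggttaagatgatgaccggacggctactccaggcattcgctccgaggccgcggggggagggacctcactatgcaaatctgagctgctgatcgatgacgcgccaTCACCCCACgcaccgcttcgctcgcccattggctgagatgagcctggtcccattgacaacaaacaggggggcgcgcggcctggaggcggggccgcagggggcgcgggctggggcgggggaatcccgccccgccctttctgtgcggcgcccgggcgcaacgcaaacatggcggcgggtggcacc

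**Figure D4:**
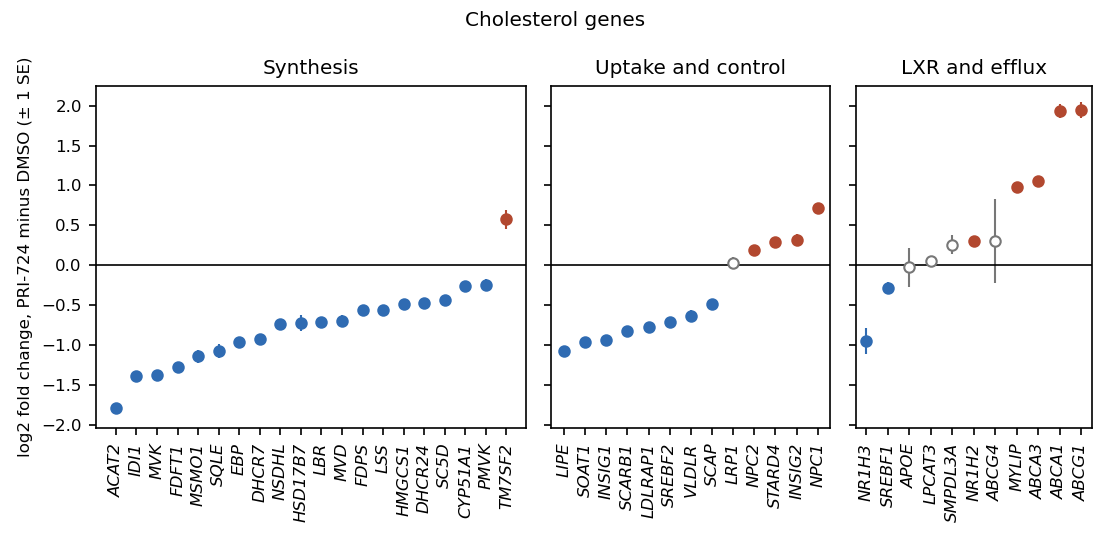
Log2 fold change with PRI-724 of cholesterol synthesis enzymes, of uptake, storage and control genes and of LXR receptors and efflux genes, with bars of 1 SE and filled points for an adjusted p under 0.05. Of the synthesis enzymes drawn only TM7SF2 lies above 0, LIPE and INSIG1 lie at -1.07 and -0.94 in the middle panel, and ABCA1 and ABCG1 lie near 2.

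Genes of nearly every step of steroid synthesis fell. Of 10 genes of cholesterol import and side-chain cleavage 8 fell, and of 15 enzymes of the hormones themselves 13. FATE1, a mitochondrial outer membrane protein and an SF-1 target, had the largest fall among genes that met the filters for largest changes given earlier. It was at 8.62, 9.09 and 8.70 CPM with DMSO and 0.145, 0.290 and 0.104 CPM with PRI-724 (raw counts of 3, 7 and 3), a change of -5.60 ± 0.24. HSD3B2 (chromosome 1, 119414931 to 119423035), a dehydrogenase on the route to every active steroid, was at 70.9, 81.4 and 83.1 CPM and 3.44, 3.40 and 3.79 CPM (-4.46 ± 0.10, 22.0-fold lower). CYP17A1, needed for cortisol and androgens, was at 60.0, 64.9 and 65.3 CPM and 4.22, 4.10 and 4.42 CPM (-3.90 ± 0.066). For these 3 genes every PRI-724 library lay far below every DMSO library. SULT2A1, which sulfates the androgen DHEA, fell by 2.91. CYP11A1, which cleaves the cholesterol side chain, and STAR, which brings cholesterol to it, also fell (-2.25 ± 0.044 and -2.18 ± 0.048). CYP21A2 fell by 1.91, and its reads can be shared with a near-identical pseudogene. CYP11B2, aldosterone synthase, had raw counts of 20, 45 and 36 with DMSO and 1, 7 and 2 with PRI-724, and CYP11B1, a near-identical neighbour, 10, 12 and 9 and 0, 4 and 0. Both fell, and the size of the fold is poorly set by so few counts. SRD5A1 alone rose (0.74) among the hormone enzymes, and STARD3 (0.25) among the import genes.

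Among 23 receptors, transcription factors and other genes that mark or regulate the adrenal cortex 17 fell, SCARB1 and SOAT1 of the cholesterol genes included. MC2R, the receptor for ACTH, was at 3.10, 3.35 and 4.14 CPM with DMSO and 0.242, 0.124 and 0.174 CPM with PRI-724, from raw counts of 68, 91 and 88 and 5, 3 and 5, and fell by 4.28 ± 0.27 SE. Its accessory protein MRAP fell by 1.497. NR5A1 was at 581, 589 and 594 CPM and 341, 292 and 337 CPM, a fall of 0.86 with no overlap. NR4A1 and NR4A3, orphan receptors induced by ACTH and angiotensin, fell by 0.72 and 1.65, and NR4A2 was at 4.69 ± 0.563 CPM and 4.85 ± 0.463 CPM (SD, n = 3) and did not pass. The angiotensin receptor AGTR1 fell by 0.81. NR0B1 (DAX-1), the repressor of SF-1 and a known β-catenin target in this tissue, was at 9.07, 10.3 and 11.6 CPM with DMSO and 8.67, 7.79 and 9.71 CPM with PRI-724, overlapping ranges that did not pass (-0.23 ± 0.11, adjusted p = 0.0679). It passed without PRI-724 replicate 3 (adjusted p = 0.025) or DMSO replicate 1 (adjusted p = 0.0223). TBX3, HOXA5 and CITED2 rose by 0.56, 0.23 and 0.28. GNRHR, the receptor for gonadotropin-releasing hormone, which some adrenal tumours carry, fell from 11.2, 12.8 and 10.8 CPM to 0.436, 0.373 and 0.418 CPM (-4.82 ± 0.17). CGA, the shared α chain of the pituitary glycoprotein hormones, had raw counts of 60, 48 and 44 with DMSO and 0, 4 and 1 with PRI-724. The SF-1 site, searched as AAGGTCA on both strands, was in 3.95% of windows of genes tested, in 0 of 8 import genes, 5 of 11 hormone enzymes and 0 of 14 regulators. Of the 5 hormone enzymes with the site 4 fell (median -0.90), and of the 6 without it 5 fell (median -1.74).

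Most Wnt target genes tested did not fall. Of 33 Wnt target genes 20 rose and 9 fell (median 0.39), against 29.8% and 29.0% of all genes. AXIN2 (chromosome 17, 65528563 to 65561647), the standard readout of β-catenin activity and a brake on it, was at 108, 98.9 and 101 CPM with DMSO and 174, 168 and 174 CPM with PRI-724. All PRI-724 libraries lay above all DMSO libraries (0.74 ± 0.042, adjusted p = 8.26e-12). NKD1, another feedback inhibitor, was at 382, 347 and 331 CPM and 1075, 965 and 1008 CPM (1.52 ± 0.053). LEF1 rose by 0.62, the receptor-removing ligases ZNRF3 and RNF43 by 0.56 and 0.49, and MYC by 0.62. CCND1, cyclin D1, was at 2.28, 2.28 and 2.16 CPM and 9.06, 9.57 and 9.19 CPM (2.04 ± 0.12), while the other D cyclins CCND2 and CCND3 fell by 0.58 and 1.03. BIRC5 (survivin, chromosome 17, 78214186 to 78225636), an inhibitor of apoptosis and a part of the mitotic machinery that CBP with β-catenin is known to switch on in other cells, was at 213, 219.9 and 230.4 CPM with DMSO and 107, 106 and 106 CPM with PRI-724. It fell without overlap (-1.06 ± 0.047), together with S100A4 (-2.05), SOX9 (-1.26, below 2 CPM in both groups) and EPHB3 (-0.68). NOTUM, ID2 and SP5 were at -0.07, -0.05 and 0.06 and did not pass. The members that rose include feedback inhibitors of the pathway (AXIN2, NKD1, ZNRF3 and RNF43), CD44 (1.33), FOSL1 (2.93) and SOX4 (1.29). What drives these rises was not tested.

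The pathway's own parts were mixed. CTNNB1, β-catenin, was at 1254, 1298 and 1287 CPM with DMSO and 1305, 1349.8 and 1341 CPM with PRI-724, and did not pass (0.06 ± 0.034, adjusted p = 0.154). CREBBP, whose protein PRI-724 is described to bind, was at 132, 120.4 and 112 CPM and 177, 152 and 167 CPM and rose by 0.45 ± 0.061, and EP300 rose by 0.30. In the list of CBP, p300, related coactivators and deacetylases 18 of 27 rose and 4 fell, the deacetylases HDAC1 and HDAC3 by 0.59 and 0.47. Among ligands WNT5A rose by 0.84 and WNT11 fell by 0.81. Of 20 receptors 9 rose, FZD7 by 0.65, and 5 fell, among them the co-receptor LRP5 (-0.51). Inhibitors of the pathway, secreted, membrane-bound or intracellular, gave 7 rises and 5 falls among 15, with SFRP4 at -1.63. In the destruction complex 10 of 20 rose and 4 fell. Among nuclear factors, the corepressors TLE3, TBL1X and TBL1XR1 rose by 0.87, 0.82 and 0.92, and TCF7 fell by 0.21. The letters CTTTGAT, a core TCF/LEF site, were in 2.15% of windows on either strand, in 2 of 19 windows of Wnt targets (FGF18 and SP5) and in 0 of 6 of Wnt inhibitors.

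Genes of DNA replication and mitosis fell together. Of 23 licensing genes 21 fell, of 24 fork genes 20, of 24 mitotic kinases and cyclins 22, of 26 kinetochore genes 24 and of 26 motors, condensins and spindle genes all 26. Only ORC3 of these lists rose (0.16), and it did not pass without PRI-724 replicate 2 (adjusted p = 0.176) or DMSO replicate 1 (adjusted p = 0.119). PCNA, the sliding clamp of replication, was at 281, 282 and 297 CPM with DMSO and 143, 143 and 151 CPM with PRI-724 (-0.98 ± 0.044). CCNB1, cyclin B1, was at 315, 339 and 337 CPM and 154, 162 and 166 CPM (-1.04 ± 0.046). For both genes the groups were apart by far more than their spread. RRM2, which makes deoxynucleotides (-1.37), AURKA of the spindle poles (-1.12), CENPW of the kinetochore (-1.56) and the proliferation marker MKI67 (-0.65) fell. FOXM1, the factor that drives many of these genes, fell by 0.12, a change that did not pass without PRI-724 replicate 3 (adjusted p = 0.0607) or DMSO replicate 2 (adjusted p = 0.066). CENPF was at 403 ± 49.9 CPM and 393 ± 17.4 CPM (SD, n = 3) and did not pass. Of 8 inhibitors of cyclin-dependent kinases 5 fell and 1 rose. CDKN1A (p21) was at 175, 174 and 175 CPM with DMSO and 116, 104 and 111 CPM with PRI-724, a fall of 0.66 with no overlap. CDKN2C fell by 0.68, CDKN2B rose by 0.45, and CDKN1B (p27) did not pass (0.09), though it did without PRI-724 replicate 2 (0.15, adjusted p = 0.00694). Purine and pyrimidine genes gave 13 falls among 19, and CAD, which starts pyrimidine synthesis, rose by 0.65.

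Histone genes of the replication-dependent clusters fell as well, a family counted here after its values were seen. Their messengers normally end in a stem-loop and carry no poly(A) tail, so poly(A)-selected libraries hold only the tailed part. Their median length was 718 bases. Of 54 tested 47 fell and 0 rose, with a median of -1.39, and the falls spanned H1, H2A, H2B, H3 and H4. Their summed level was 578 to 599 CPM with DMSO, 229 to 262 CPM with PRI-724, 663 to 675 CPM with EPZ-6438 and 600.2 to 645 CPM with forskolin. H1-2 (chromosome 6, 26055787 to 26056428), a linker histone, was at 107, 118 and 117 CPM with DMSO and 20.3, 20.2 and 21.0 CPM with PRI-724 (-2.47 ± 0.057, 5.55-fold lower). It was at 122, 129.9 and 124 CPM with EPZ-6438 and 115, 104 and 113 CPM with forskolin, so only the PRI-724 libraries were low. H2BC12 fell by 1.61. H3C14 and H3C15 are near-identical copies whose values cannot be told apart.

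Promoters of the mitotic lists were read for the cell cycle genes homology region, searched as TTTGAA on both strands, which repressor complexes of the cell cycle bind. It was in 14.12% of windows of genes tested, in 10 of 18 windows of mitotic kinases and cyclins, 12 of 22 of kinetochore genes and 20 of 24 of motor genes. CCAAT, the core of the NF-Y site, was in 42.61% of windows and in 14, 17 and 18 of the same 3 sets. The E2F letters TTNGCGC were in 14.94% of windows, in 13 of 20 of licensing genes and 10 of 20 of fork genes. Of licensing genes 13 of 13 with these letters fell and 5 of 7 without, and of fork genes 6 of 10 with and 10 of 10 without. In the mitotic lists the count of falls was 41 of 42 with TTTGAA and 20 of 22 without. The window of SPC25, of the kinetochore's outer complex, on the minus strand at chr2:168890381-168890680, is printed because SPC25 had the largest fall among members with a match (-1.23, from 21.9, 25.1 and 24.2 CPM to 10.4, 9.12 and 10.9 CPM). Its matches begin 247 and 3 bases before the start.
SPC25: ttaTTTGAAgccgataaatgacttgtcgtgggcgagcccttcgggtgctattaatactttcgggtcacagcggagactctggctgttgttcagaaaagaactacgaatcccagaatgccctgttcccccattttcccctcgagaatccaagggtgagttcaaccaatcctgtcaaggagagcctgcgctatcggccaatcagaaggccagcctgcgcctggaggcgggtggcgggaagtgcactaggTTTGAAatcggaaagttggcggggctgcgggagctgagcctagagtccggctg

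Genes of cell death moved in both directions. Among 15 members of the BCL2 family 7 rose and 4 fell. The rises were led by 4 BH3-only killers, while BAD, BID and BCL2L11 of the same class were tested and are not reported here. BBC3 (PUMA) was at 4.79, 5.52 and 4.94 CPM with DMSO and 32.2, 22.9 and 31.1 CPM with PRI-724 (2.49 ± 0.15). HRK was at 3.10, 2.94 and 3.20 CPM and 19.4, 17.0 and 16.2 CPM (2.51 ± 0.10). BMF rose by 1.39 and PMAIP1 (NOXA) by 1.01, and the survival gene BCL2 fell by 1.249, while MCL1 rose by 0.13 and BCL2L1 did not pass (0.10). The death receptor TNFRSF10B rose by 0.97. The p53 target list gave 12 rises and 13 falls among 29. BBC3, GDF15, SESN2, GADD45A and PMAIP1 were among the risers, and BTG2 and FDXR, a p53 target that also passes electrons to the steroid enzymes, fell (-1.83 and -1.87). Which factor drives these changes was not tested.

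Mitochondrial genes divided by the genome that encodes them. Of nuclear-encoded subunits, assembly factors and regulators of the respiratory chain, 35 of 37 in complex I, 7 of 7 in complex II, 9 of 12 in complex III, 14 of 16 in complex IV and 13 of 16 in the ATP synthase fell. ATP5F1B, its catalytic chain, was at 1389.5, 1488 and 1524 CPM with DMSO and 979.7, 1008 and 1019 CPM with PRI-724 (-0.55 ± 0.041). Mitochondrial ribosomal proteins gave 64 falls and 1 rise among 77 (median -0.40), and the citric acid cycle 17 falls among 20, with FH, fumarase, at -0.89. IDH1, which is cytosolic, rose by 0.38. Of 13 genes encoded in mitochondrial DNA 8 rose and 0 fell. MT-ND2 was at 1365, 1128 and 1019 CPM with DMSO and 3757, 4765 and 3931 CPM with PRI-724 (1.83 ± 0.16), and MT-ATP6 at 2242, 1915 and 1728 CPM and 3900.0, 5254 and 4302 CPM (1.19 ± 0.16). Both were without overlap, and PRI-724 replicate 2 was the highest library for each. MT-CO1 was at 6488, 5136 and 4702 CPM and 3745, 5093 and 4067 CPM and did not pass (-0.34 ± 0.17). TFAM, which packs and transcribes mitochondrial DNA, fell by 0.44. Without PRI-724 replicate 2, 8 of the 13 rose and MT-CO1 fell (-0.49, adjusted p = 0.0487).

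Several of these nuclear-encoded lists hold short genes, and changes over all genes ran with gene length. The median length was 2263 bases in complex I, 2464 in the mitochondrial ribosome and 3538 in the proteasome, against 5020 over protein-coding genes tested. The citric acid cycle list, of which 17 of 20 fell, was closer to that length, with a median of 4632 bases and 0 genes in the shortest of 5 groups. The 20116 genes tested for which a GC content was available were put in 5 groups of equal size by length. From the shortest to the longest group the share that rose went from 14.4% to 47.4%, and the median log2 fold change from -0.11 to 0.16. It was -0.10, -0.08 and -0.06 in the shortest group and 0.16, 0.17 and 0.14 in the longest in PRI-724 replicates 1, 2 and 3, each relative to the DMSO mean. Among protein-coding genes alone, 49.3% of the shortest group and 43.3% of the next fell. Processed pseudogenes, which share reads with their parent genes, gave 355 falls and 149 rises among 1262. The list of CBP, p300 and related coactivators and that of the destruction complex, in which more genes rose than fell, held longer genes. Their medians were 6964 and 6650 bases, and in the longest of the 5 length groups 47.4% rose and 21.7% fell. The part of length in the falls and rises of these lists was not tested. Cytosolic ribosomal proteins, with a median length of 2930 bases, were more even, with 32 falls and 15 rises among 81, such as RPL35 (-0.83) and RPS27 (0.59).

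Among oxidative and xenobiotic responses, HMOX1, which breaks down heme, was at 30.1, 31.0 and 31.4 CPM with DMSO and 245, 231 and 252 CPM with PRI-724 (2.98 ± 0.053). The ferritin chains FTH1 and FTL, which store iron, rose by 1.35 and 0.999, and their copies elsewhere in the genome make these 2 values uncertain. In the NRF2 target list 17 of 27 rose and 7 fell. The classic targets NQO1 and TXNRD1 rose by 0.57 and 0.57, and GSR and PRDX1 fell by 0.27 and 0.32. The antioxidant response element, TGACNNNGC, was in 19.15% of windows on either strand and in 5 of 19 of these genes. Of 8 genes of the aryl hydrocarbon receptor 6 rose: CYP1A1 was at 8.76, 11.3 and 10.3 CPM and 38.4, 39.6 and 37.8 CPM (1.92 ± 0.072), and TIPARP and AHRR rose by 1.96 and 1.44. Glycolysis gave 16 falls and 8 rises among 28. LDHA and TPI1 fell by 1.03 and 1.09, and the entry enzymes HK2 and PFKP rose by 1.31 and 0.70, as did ENO2 (2.22).

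Signalling genes rose in several families. Of 20 immediate early and AP-1 genes 14 rose and 1 fell. FOSL1 was at 0.821, 1.14 and 0.894 CPM with DMSO and 8.62, 6.30 and 7.38 CPM with PRI-724 (2.93 ± 0.18). EGR1 was at 78.9, 89.6 and 70.1 CPM and 107, 108 and 151 CPM, all PRI-724 libraries above all DMSO libraries, and did not pass (0.62 ± 0.24, adjusted p = 0.0508). Of 22 feedback genes of MAP kinase signalling 13 rose, DUSP4, a phosphatase, from 17.9, 17.7 and 17.1 CPM to 98.3, 88.6 and 99.0 CPM (2.44 ± 0.062), SPRY4 by 1.63 and ETV5 by 1.16, and DUSP10, DUSP16 and DUSP1 fell. In the TGF-β and BMP list 18 of 30 rose, among them BMPR2, a BMP receptor, by 1.84, and 6 members of the list fell. YAP and TEAD genes gave 14 rises among 18, AXL by 2.48 and CCN2 by 0.84.

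Genes of the extracellular matrix moved both ways. FN1, fibronectin, was at 114, 106 and 109.5 CPM with DMSO and 997, 1014 and 947 CPM with PRI-724, 8.97-fold higher (3.17 ± 0.051). Its integrin ITGA5 rose by 0.84, and ITGA3 and ITGA2 by 1.72 and 1.56. Collagens gave 14 rises and 12 falls among 35: the basement membrane chains COL4A1 and COL4A2 fell by 0.49 and 0.48 and COL11A1 fell by 1.80. Interferon-stimulated genes gave 15 falls and 5 rises among 31, with IFIT1 at -1.81 and STAT2, which carries the interferon signal, at 0.82. MHC class I genes gave 9 rises among 17, with HLA-B at 0.65. HLA genes share reads with one another, so their values are uncertain. KCNN4 (chromosome 19, 43766533 to 43781261), a calcium-gated potassium channel, had the largest rise among genes that met the filters for largest changes given earlier. It went from 0.182, 0.184 and 0.282 CPM to 6.44, 4.14 and 5.46 CPM (4.61 ± 0.33). Among 61 potassium channel genes 20 rose and 18 fell.

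Genes of growth factor and cAMP signalling were split. In the IGF axis 8 of 19 genes rose and 8 fell. IGF2, the growth factor that adrenocortical carcinomas characteristically overproduce, was at 3944, 3839 and 3530.0 CPM with DMSO and 3820.3, 2793 and 3601 CPM with PRI-724. The ranges overlapped and the change did not pass (-0.15 ± 0.10, adjusted p = 0.251). IGF2R, which clears IGF2 from the cell surface, rose from 263, 243 and 241 CPM to 549, 567 and 529 CPM (1.14 ± 0.053), with no overlap. PAPPA2, a protease that frees IGF from its binding proteins, rose from 0.912, 0.589 and 0.659 CPM to 10.1, 9.86 and 9.25 CPM (3.76 ± 0.16), and the binding proteins IGFBP5, IGFBP6 and IGFBP2 fell (-1.79, -1.48 and -1.16), as did IGF1 (-1.85). Of 30 genes that make, sense or degrade cAMP 13 fell and 4 rose. The cyclases ADCY7 and ADCY9 went opposite ways (-2.24 and 1.34), and PRKACA, the catalytic subunit of protein kinase A, fell by 0.64. PDE11A, a phosphodiesterase of the adrenal cortex, fell by 1.32, and PDE2A, another phosphodiesterase, was at 564 ± 14.6 CPM and 564 ± 19.5 CPM (SD, n = 3) and did not pass.

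Other housekeeping systems changed less uniformly. Of 27 DNA repair genes 16 fell and 5 rose (3 without DMSO replicate 2 or 3), among the latter ATM, the kinase that senses double-strand breaks (0.57), while the mismatch repair gene MSH6 and the ubiquitin conjugase UBE2T fell (-0.63 and -0.94). At the entry to the cell cycle 13 of 22 genes fell, among them SKP2, which degrades p27 (-1.05), and 4 rose, among them CDK6 (0.38). Lysosomal genes gave 14 rises and 8 falls among 31, with the peptidase TPP1 at 0.87 and the galactosidase GLA at -1.08. Autophagy genes gave 12 and 8 among 27: MAP1LC3B, the membrane tag of the autophagosome, rose by 0.69 and its relatives GABARAP and GABARAPL2 fell (-0.43 and -0.46). Translation factors were even, with 16 rises and 16 falls among 39, and so was ribosome biogenesis, with 12 and 10 among 36.

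Some changes differed from both other treatments by direct test. Of all genes, 22.2% were higher and 21.7% lower with PRI-724 than with EPZ-6438, and 29.3% higher and 29.5% lower than with forskolin. A count was made among genes beyond 1.5-fold against DMSO that had a symbol and a mean log2 CPM of at least 1. Of these, 443 were also higher and 394 also lower than in both other treatments. The 1240 and 1251 genes beyond 1.5-fold given earlier, of 20360 tested, were counted without this filter. How many genes met the filter is not given here, so 443 and 394 cannot be read as shares of them. These comparisons share the PRI-724 libraries, so they are not independent of one another. The genes furthest from both other treatments were picked from this count, so their direct tests had passed as a condition of the choice. TSC22D3 (GILZ), best known as a glucocorticoid target, was at 42.6, 46.4 and 45.3 CPM with DMSO, 152, 149.9 and 157 CPM with PRI-724, 42.2, 44.2 and 43.2 CPM with EPZ-6438 and 33.9, 32.5 and 32.7 CPM with forskolin. Only the PRI-724 libraries were high, by 1.82 over EPZ-6438 and 2.21 over forskolin (adjusted p = 2.16e-16 and 9.92e-19). ABCA1 was at 9.32, 8.97 and 8.94 CPM with EPZ-6438 and 10.6, 10.9 and 9.86 CPM with forskolin, near the DMSO values, and was higher with PRI-724 by 2.21 and 2.004. ABCG1 was at 6.39, 7.25 and 5.79 CPM and 1.11, 0.621 and 0.583 CPM, so forskolin stood below DMSO, and the differences were 1.75 and 4.81. KLF2, a transcription factor of quiescent cells, was at 7.07, 8.98 and 8.19 CPM with DMSO and 50.5, 31.4 and 58.6 CPM with PRI-724, where replicate 2 was the lowest of its group but above every DMSO library (2.53 ± 0.23, and 2.74 without that library). It was at 6.42, 6.12 and 6.52 CPM with EPZ-6438 and 12.2, 13.2 and 15.9 CPM with forskolin.

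Among genes lower than in both, MC2R was at 1.05, 0.861 and 1.06 CPM with EPZ-6438 and 11.998, 9.64 and 10.1 CPM with forskolin, so its differences were -2.45 and -5.86. KRT17, a keratin, was at 2.64, 2.54 and 2.87 CPM with DMSO, 0.145, 0.207 and 0.174 CPM with PRI-724, 0.679, 0.960 and 1.06 CPM with EPZ-6438 and 8.22, 7.04 and 6.72 CPM with forskolin. PRI-724 was lowest and forskolin highest, with no overlap between any of the 4 groups. H1-2 differed by -2.61 and -2.43. Other falls were about as deep with EPZ-6438. HSD3B2 was at 4.38, 4.37 and 3.08 CPM with EPZ-6438, a difference of -0.15 ± 0.14 SE that did not pass, and neither did that of GNRHR (0.24 ± 0.34 SE). STAR differed from EPZ-6438 by -0.15 (adjusted p = 0.015). The stress genes were higher with PRI-724 than with EPZ-6438: CHAC1 by 0.76, DDIT3 by 1.13, TRIB3 by 1.32 and ASNS by 0.70. Each difference was smaller than that gene's rise over DMSO, so EPZ-6438 also stood above DMSO for these genes. Against forskolin CHAC1 and DDIT3 differed by 0.98 and 1.06, TRIB3 by -0.23, and GDF15 was at 38.7, 37.7 and 39.7 CPM with forskolin and the difference did not pass (-0.04 ± 0.089 SE). Forskolin likewise stood above DMSO for CHAC1, DDIT3, TRIB3 and GDF15. Of 22 stress response genes 18 were higher and 1 lower than with EPZ-6438, and 18 higher and 4 lower than with forskolin. Of 25 amino acid synthesis genes 18 were higher and 1 lower than with EPZ-6438, and 10 higher and 11 lower than with forskolin. For CCND1 the difference from EPZ-6438 was -1.28 and from forskolin 2.21, so EPZ-6438 stood highest.

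**Figure D5:**
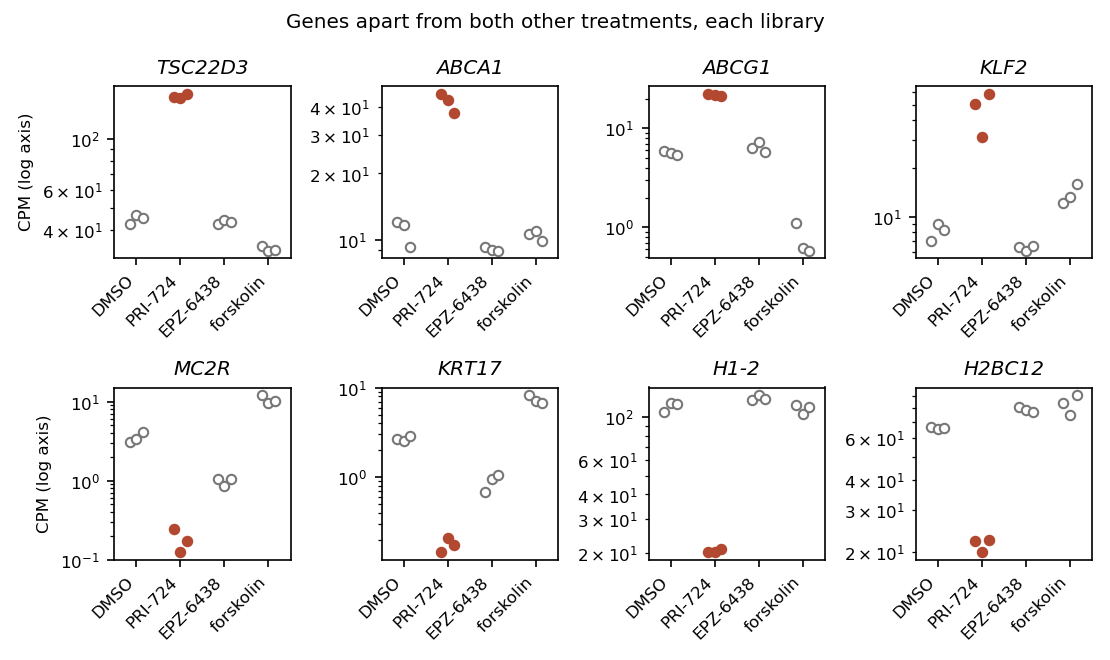
Level of 8 genes, chosen for standing apart from both other treatments, in the 12 libraries by treatment, in CPM on logarithmic axes, 1 point a library. TSC22D3, ABCA1, ABCG1 and KLF2 are higher with PRI-724 than in the 9 other libraries, and MC2R, KRT17, H1-2 and H2BC12 are lower.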

How the data were processed

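RNA of 12 NCI-H295R libraries was sequenced, 3 per treatment. The submitters' processing notes name the aligner STAR, the counter featureCounts and the build hg38, without versions. What the authors deposited are expected counts (65.6% of values above 0 were whole numbers, within 1e-06) and, per the file headers, a gene length in bases, the other value used. Counts were rounded, genes with too few counts were left out (filterByExpr), libraries were scaled by TMM, and the 12 libraries were fitted together with edgeR 4.0.16 (R 4.3.3), using its quasi-likelihood test, Benjamini-Hochberg adjustment and a test against 1.5-fold. In data simulated for this comparison (19443 genes), 28 of 50 genes changed 1.25-fold, 44 of 50 changed 1.5-fold and all 50 changed 2-fold were recovered. Far fewer genes were changed there than passed in the data, and all had an expected DMSO count above 50. The recovery therefore does not describe genes with few counts, nor a comparison in which most genes pass. CPM are counts per 1000000 of the scaled library size, except in the sums of cell type markers, which used unscaled library totals. Replicates are cultures of 1 cell line, so p-values measure the spread between them. Alternatives were other scalings and filters, DESeq2 1.42.0, limma 3.58.1 (voom), a fit of only the DMSO and PRI-724 libraries, and leaving out each replicate.

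The comparison, the gene lists and the motifs were chosen with earlier results of these data known. Genes named are the 15 largest rises and falls among genes with a symbol that pass the test and have non-overlapping groups, and a set of fixed genes. For the largest rises and falls a mean of at least 1 on the log2 CPM scale over all 12 libraries was also required. From each list come up to 6 passing members with the largest change, those that went against the list, and up to 4 well expressed ones that did not pass. The 8 genes in each direction furthest from both other treatments complete the rule, and a few of the genes it names are not reported here. AARS1, AGTR1, ATP5F1B, CD44, CEBPB, CEBPG, FGF18, IGF2R, ITGA5, MTHFD2, NARS1, NR4A1, PHGDH, PPP1R15A, PRKACA, SCAP, SHMT2, SOX4, TARS1 and TXNRD1 lie outside the rule and were chosen after their values were seen. Promoter windows are from RefSeq, build GRCh38.p14.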

Additional observations from a re-analysis of the deposited data

How the results depend on the processing

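No paired analysis was possible because the labels and columns carry no replicate numbers that tie a PRI-724 culture to a DMSO culture. Counts of genes past the test stayed within 1.5 times the main count under every scaling, filter, tool and left-out replicate that was run. The exceptions are in the test beyond 1.5-fold, where DESeq2 called 778 genes higher and 816 lower, and a threshold of 2-fold left 372 and 365. Without 1 replicate in turn, 5387 to 5711 genes were higher, 5467 to 5868 lower, 1052 to 1245 higher beyond 1.5-fold and 1135 to 1237 lower beyond it. Against EPZ-6438 the same range was 4032 to 4262 higher and 4093 to 4317 lower, and against forskolin 5633 to 5828 and 5727 to 5917. The median log2 fold change of all genes stayed between 0.00 and 0.02. No named gene that passed the test changed direction under any of these alternatives. The genes named whose call depended on a setting were ATF5, CDKN1B, CEBPB, CEBPD, EGR1, FOXM1, IGF2, MT-CO1, NR0B1 and ORC3. With no filter on low counts EGR1, IGF2 and MT-CO1 passed. EGR1 passed under DESeq2 (adjusted p = 0.0247) and limma voom (adjusted p = 0.0065). CEBPB did not pass with RLE scaling (adjusted p = 0.0503). With only the DMSO and PRI-724 libraries in the fit CEBPB did not pass (adjusted p = 0.0738), and the same fit called 13 potassium channel genes and 5 fatty acid synthesis genes higher. The causes were not tested. With 1 cell line, 1 dose and 1 time, dose, duration and line cannot be separated, and total counts of 20552700 to 28780890 leave genes such as CGA and CYP11B2 with too few counts for a fold.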
